A study of Mus musculus with 12 samples.

Results

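The genes described here are 40 markers of the lineages that leave pluripotency in the early mouse embryo, chosen by symbol from a fixed list and found as 40 of the 42450 genes listed in the count table. They comprise 11 mesendoderm genes, 11 ectoderm genes, 9 primitive endoderm genes and 9 trophoblast genes. They were measured in E14tg2a.4, a male mouse embryonic stem cell (ESC) line without any engineered allele named in the labels. The cells received 50 nM of synthetic siRNA duplexes against *Srrm2*, which encodes a splicing factor (Srrm2-KD), or, as control, against Gl2, a firefly luciferase (Gl2-KD). The duplexes were delivered with a lipid transfection reagent, and more than 1 sequence is listed against *Srrm2* and 1 against Gl2. The cells were grown on gelatin in medium with LIF and moved to serum-free medium with LIF. They were harvested at 24 h or, after a further transfection with the same duplexes, at 72 h. With 3 independent experiments, each holding every combination of siRNA and time point, there were 4 groups of 3 polyA+ RNA libraries, 12 in all. The experiments share 1 cell line, so they do not sample other genotypes.

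Germ layer and extraembryonic genes are read as signs of differentiation in ESC cultures. Mesendoderm genes mark the primitive streak and the mesoderm and definitive endoderm that come from it, and many of them respond to Wnt and Nodal signals. Ectoderm genes mark neural, neural crest and surface ectoderm progenitors, and some of them are already transcribed in pluripotent cells. Primitive endoderm and trophoblast genes mark the lineages that form the yolk sac and the placenta. In ESC many of them are held low by the pluripotency network, but not all were low here, as *Tfap2c* and *Elf3* below.

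Sequencing depth lay between 73933196 and 153343831 estimated counts a library. *Srrm2*, the target of the siRNA, was below its Gl2-KD level in 3 of 3 experiments at each time point, by a log2 fold change of -1.22 at 24 h and -1.16 at 72 h (adjusted p = 0.0663 and 0.0991, edgeR quasi-likelihood test). The target itself thus missed the threshold of 0.05 in this fit, while DESeq2 (adjusted p = 5.03e-11 and 1.72e-09) and limma-voom (0.0277 and 0.0218) called it. The summed level of 10 pluripotency genes, *Pou5f1* the highest of them, lay between 4585 and 5510 CPM in the 12 libraries. *Pou5f1* and *Tdgf1* made 45.8% of this sum, and single genes differed between experiments. In experiment 1, all 4 libraries lay above the other 8 for *Klf4* and *Tfcp2l1*, where 16.7% of all genes did. They lay below for *Pou5f1*, *Dppa3* and *Utf1*, where 13.7% did, and overlapped for the rest. *Klf4* averaged 200 CPM in experiment 1 and 90.9 CPM in the others, and *Dppa3* 9.11 and 54.4 CPM. CPM are counts relative to library sizes that were scaled by TMM. Of the 10 fibroblast markers checked, 6 passed the filter on low counts, *Postn*, *Lum*, *Dcn* and *Twist2* did not, and *Thy1* made 74.4% of their summed level. That sum was 7.03 to 10.2 CPM in experiment 1, 13.1 to 14.7 CPM in experiment 2 and 19.1 to 28.7 CPM in experiment 3.

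The regions upstream of 4 members are shown because these are the members, among those with a promoter entry, with the smallest p of their lineage in a time comparison below. Each is the 250 bases before the RefSeq transcription start (GRCm38.p6), read on the strand of the gene. Capitals mark matches, on either strand, to the TATA box as TATAAA, to CCAAT, to the AP-2 core as GCCNNNGGC or to the GC box as GGGCGG, and overlapping matches run together. *Krt7* is read at chr15:101412153-101412402 on the forward strand, *Sox11* at chr12:27342719-27342968 on the reverse strand, *Pax6* at chr2:105668646-105668895 on the forward strand for the first of its 2 entries, and *Evx1* at chr6:52313248-52313497 on the forward strand.
Krt7: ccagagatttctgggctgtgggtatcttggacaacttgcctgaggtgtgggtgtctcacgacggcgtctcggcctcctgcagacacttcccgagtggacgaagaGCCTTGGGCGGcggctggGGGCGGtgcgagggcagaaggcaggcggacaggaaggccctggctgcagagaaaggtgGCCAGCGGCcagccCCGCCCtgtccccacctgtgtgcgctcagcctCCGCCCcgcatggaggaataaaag
Sox11: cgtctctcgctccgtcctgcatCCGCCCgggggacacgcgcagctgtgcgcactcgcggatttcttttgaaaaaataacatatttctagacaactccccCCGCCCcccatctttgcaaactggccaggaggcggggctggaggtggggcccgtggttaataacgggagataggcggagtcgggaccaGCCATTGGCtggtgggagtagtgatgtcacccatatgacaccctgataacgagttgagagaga
Pax6: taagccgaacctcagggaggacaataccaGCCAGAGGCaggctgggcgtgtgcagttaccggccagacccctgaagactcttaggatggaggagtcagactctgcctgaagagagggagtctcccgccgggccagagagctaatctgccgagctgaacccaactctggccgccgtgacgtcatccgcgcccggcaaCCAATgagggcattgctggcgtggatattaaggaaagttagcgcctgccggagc
Evx1: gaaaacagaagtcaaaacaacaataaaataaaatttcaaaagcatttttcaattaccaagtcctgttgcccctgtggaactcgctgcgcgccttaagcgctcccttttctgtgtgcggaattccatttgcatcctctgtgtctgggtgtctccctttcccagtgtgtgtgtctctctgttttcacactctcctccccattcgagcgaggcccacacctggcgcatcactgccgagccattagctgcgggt

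The *Krt7* window held 4 GC boxes and 2 AP-2 cores. The *Sox11* window held 2 GC boxes and 1 AP-2 core, which contains 1 CCAAT match on the other strand. The *Pax6* window held 1 AP-2 core and 1 CCAAT match, and the *Evx1* window held none of the 4 motifs. Over the members, 30 of the 40 had an entry, with 38 starts in all. Of these 38 windows, 19 held a GC box, 19 CCAAT, 12 an AP-2 core and 3 TATAAA, while 32.7%, 33.9%, 13.7% and 12.4% of all 32851 promoters of this length did. The median number of CG dinucleotides was 13.5 in the member windows and 6 over all promoters. These matches describe the letters of the windows only.

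Most lineage markers were transcribed at low levels in these cultures. The mean over the 12 libraries was above 10 CPM for 7 members, between 1 and 10 CPM for 8, and at or under 1 CPM for 25. The low genes comprised 8 of 11 mesendoderm genes, 6 of 11 ectoderm genes, 7 of 9 primitive endoderm genes and 4 of 9 trophoblast genes. Per kb of annotated exon, the median level was 0.155 CPM per kb over the 40 members and 1.73 CPM per kb over the genes tested. By lineage this median was 0.220 for mesendoderm, 0.277 for ectoderm, 0.0233 for primitive endoderm and 0.262 CPM per kb for trophoblast.

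The order of the levels per kb was led by *Tfap2c*, an AP-2 transcription factor of trophoblast and germ cells, at 19.1 CPM per kb. *Zic2*, a zinc finger factor of neural ectoderm, followed at 15.9, *Elf3*, an epithelial ETS factor, at 10.7, and *Zic5*, a neighbour and relative of *Zic2*, at 10.6 CPM per kb. *Elf3* and *Zic5* did not differ in this order beyond the spread of their libraries. Next came *Nes*, the intermediate filament nestin of neural progenitors, at 4.58, the neural factor *Sox11* at 3.40, *Pax6*, a regulator of eye and forebrain, at 1.75 and *Hhex*, a homeobox factor of anterior endoderm, at 1.18 CPM per kb. All other members lay below 1 CPM per kb. With the longest transcript as the length, *Pax6* had 4.62 CPM per kb and passed *Sox11*, and *Krt7* had 1.42 CPM per kb in place of 0.827. Among the genes tested, *Tfap2c* stood at percentile 86.1 and *Hhex* at percentile 45.0 of this measure.

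At the other end, *Afp*, the alpha-fetoprotein of yolk sac endoderm, had 0 counts in all 12 libraries. A count of 0 allows up to 3 counts, which is 0.0196 CPM in the deepest and 0.0406 CPM in the shallowest library, for counting error only. *Ttr*, the transthyretin of visceral endoderm, had counts in 2 libraries only and never more than 4. *Mesp1* and *Cer1*, early mesoderm and anterior endoderm genes, and *Pax3*, a neural crest factor, also failed the filter, with at most 23, 12 and 13 counts. The filter thus left 35 of 40 members for the tests: 9 mesendoderm, 10 ectoderm, 7 primitive endoderm and 9 trophoblast genes. *Cdx2*, the classical trophectoderm factor, passed it with 0 to 0.209 CPM and 0 counts in 2 libraries. In bulk RNA, a low level in every cell and a higher level in few cells cannot be told apart.

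**Figure D1:**
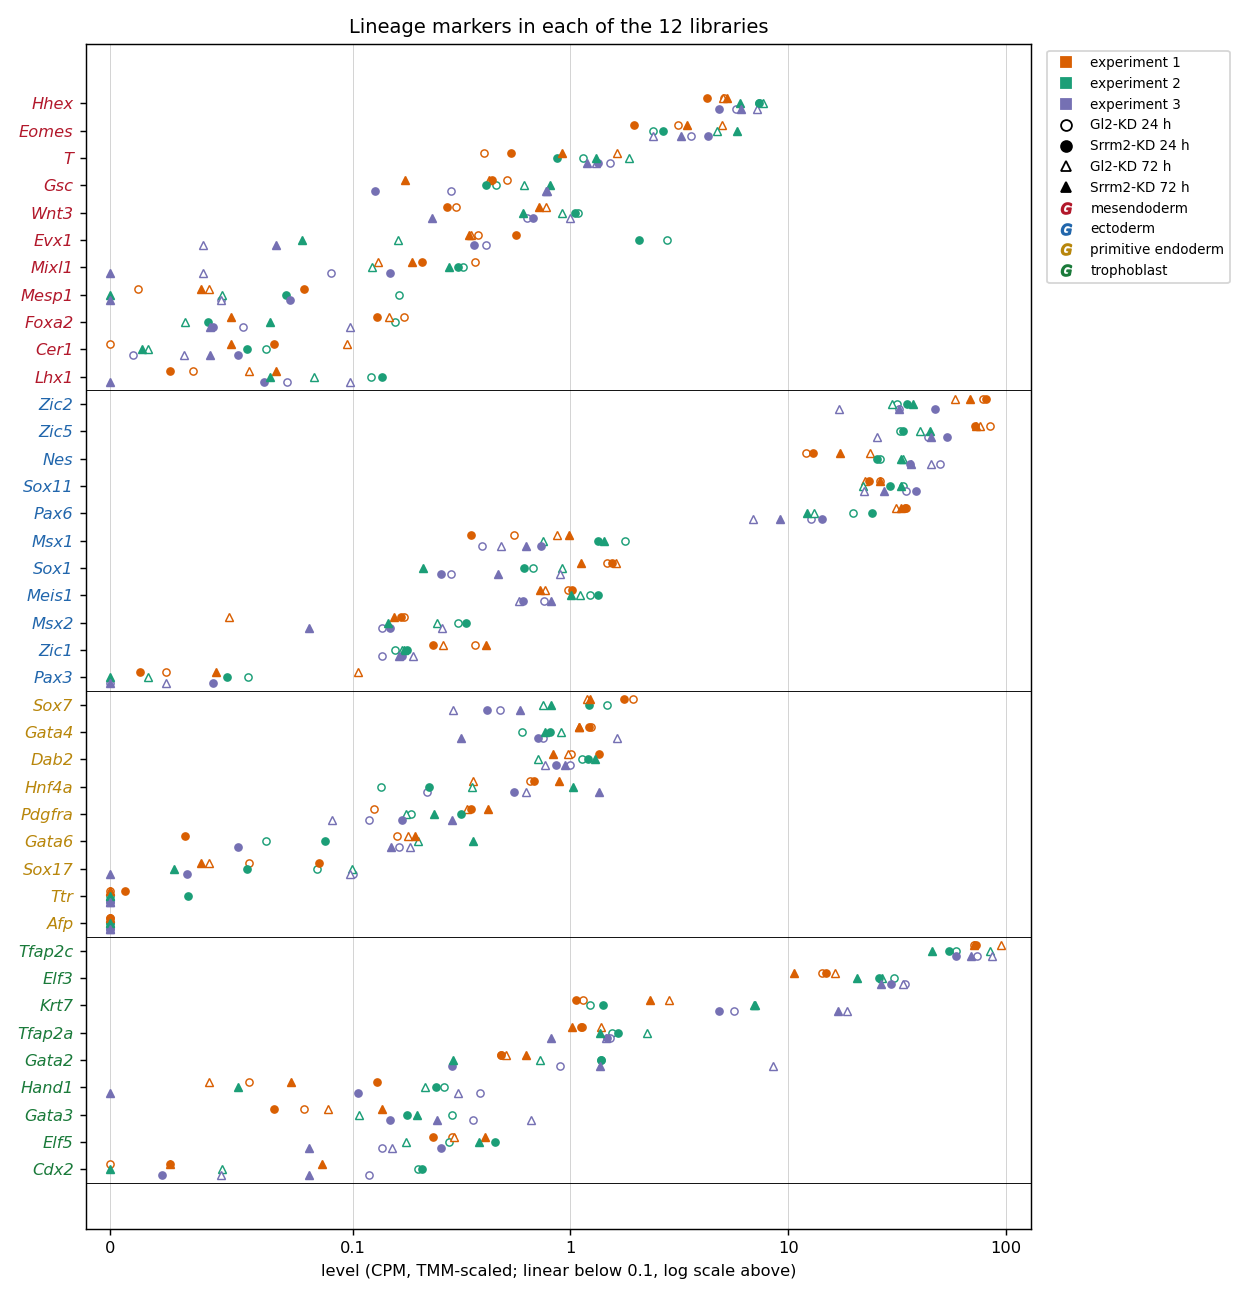
Level of each of the 40 members in the 12 libraries, in CPM on an axis that is linear below 0.1 and logarithmic above; colour gives the experiment, shape the time point, filling the siRNA, and the colour of the gene name its lineage. *Tfap2c* (45.6 to 94.98 CPM), *Zic2*, *Zic5*, *Nes*, *Sox11*, *Elf3* and *Pax6* stand at the right, and *Afp* lies at 0 in all 12 libraries.

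The libraries of the genes that lead each lineage are given here where no later comparison gives them. *Hhex* had 5.07, 7.31 and 5.78 CPM in experiments 1, 2 and 3 of Gl2-KD at 24 h, 4.26, 7.36 and 4.79 CPM in Srrm2-KD at 24 h, 5.01, 7.70 and 7.21 CPM in Gl2-KD at 72 h and 5.23, 6.03 and 6.10 CPM in Srrm2-KD at 72 h. *Eomes*, a T-box factor of streak and trophoblast, had, in the same order of groups, 3.12, 2.39 and 3.57 CPM, 1.96, 2.66 and 4.27 CPM, 4.96, 4.70 and 2.41 CPM, and 3.44, 5.79 and 3.23 CPM. For both genes all 4 groups overlapped.

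Among the ectoderm genes, *Zic5* had 84.0, 32.6 and 43.7 CPM, 72.1, 33.5 and 53.6 CPM, 75.8, 40.2 and 25.6 CPM, and 72.9, 45.0 and 45.1 CPM in this order, so that experiment 1 was the highest in every group. *Zic2* at 24 h had 78.6, 31.5 and 32.3 CPM in Gl2-KD and 81.3, 34.96 and 47.2 CPM in Srrm2-KD. *Nes* ran the other way, with 12.02, 26.3 and 49.8 CPM, 13.1, 25.7 and 36.1 CPM, 23.8, 33.8 and 45.3 CPM, and 17.3, 32.9 and 36.5 CPM, the lowest value in every group being that of experiment 1.

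In the primitive endoderm group, *Gata4* had 1.25, 0.599 and 0.748 CPM at 24 h in Gl2-KD and 1.21, 0.805 and 0.709 CPM in Srrm2-KD. *Dab2*, an endocytic adaptor of primitive endoderm, had 1.006, 1.13 and 0.995 CPM in Gl2-KD and 1.35, 1.21 and 0.857 CPM in Srrm2-KD at 24 h, then 0.978, 0.713 and 0.769 CPM and 0.835, 1.29 and 0.941 CPM at 72 h. Of the other members, *Meis1* and *Msx1*, homeobox factors, ranged from 0.579 to 1.34 and from 0.351 to 1.78 CPM. *Gsc*, the streak factor goosecoid, ranged from 0.127 to 0.805 CPM, and *Msx2*, *Zic1*, *Pdgfra*, *Mixl1*, *Foxa2*, *Lhx1*, *Hand1* and *Elf5* stayed at or below 0.451 CPM in all 12 libraries.

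The first comparison asks whether lineage markers differed after the acute, partial reduction of *Srrm2* by siRNA. At 24 h no member of the 4 lineages passed the test between Srrm2-KD and Gl2-KD, nor did *Srrm2* itself. By edgeR's quasi-likelihood test with adjustment over all 19410 genes tested, 0 of the 35 members were called (adjusted p below 0.05), and 0% of all genes were. At an unadjusted p below 0.05 there were also 0 members, against 2.62% of the genes tested, and DESeq2 and limma-voom called 0 members each (0.129% and 0.0103% of genes). The log2 fold change was above 0 for 10 members and below 0 for 25, with a median of -0.06 against 0.01 over all genes tested. All 9 mesendoderm genes tested lay below 0, between -0.92 and -0.02, but only *Gsc* and *Foxa2* did so in 3 of 3 experiments, and 7 of the 9 turned above 0 under at least 1 alternative. Over all members, 3 were higher and 4 lower in 3 of 3 experiments, against 17.3% and 15.4% of all genes. The libraries of the siRNAs overlapped for every member tested, so 0 lay fully above and 0 fully below, against 1.89% and 1.55% of all genes.

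The levels at 24 h show how wide the spread was. *Foxa2*, a forkhead factor of definitive endoderm, had 0.171, 0.157 and 0.0548 CPM in experiments 1, 2 and 3 of Gl2-KD and 0.129, 0.0403 and 0.0423 CPM in Srrm2-KD. *Gata6*, a GATA factor at the head of the primitive endoderm programme, had 0.160, 0.0642 and 0.164 CPM in Gl2-KD and 0.0308, 0.0886 and 0.0529 CPM in Srrm2-KD. *Gata3*, a GATA factor of trophectoderm, had 0.0800, 0.285 and 0.356 CPM in Gl2-KD and 0.0678, 0.177 and 0.148 CPM in Srrm2-KD. For each of the 3 genes the libraries of the siRNAs overlapped. The 95% intervals of the log2 fold change were -2.46 to 0.62 for *Foxa2*, -2.60 to 0.13 for *Gata6* and -2.02 to 0.53 for *Gata3*. For the abundant *Tfap2c*, *Elf3* and *Sox11* they were narrower, -0.39 to 0.12, -0.37 to 0.10 and -0.38 to 0.25.

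At 72 h, 0 of the 35 members were called in the same test, as were 0% of all genes, and 7 members had an unadjusted p below 0.05. The genes tested gave 12.9% at that unadjusted threshold. Higher in Srrm2-KD were *Zic2* and *Sox11* of the ectoderm genes and *Hnf4a* of the primitive endoderm genes, and lower were *Sox1* of the ectoderm genes and *Tfap2c*, *Tfap2a* and *Elf3* of the trophoblast genes. No mesendoderm gene was among them. DESeq2 called 2 members, *Tfap2c* and *Elf3* (3.38% of genes), and limma-voom called 0 (0.0206% of genes).

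Among the trophoblast genes, *Tfap2c* had 94.98, 84.5 and 85.8 CPM in experiments 1, 2 and 3 of Gl2-KD at 72 h and 71.4, 45.6 and 69.2 CPM in Srrm2-KD. Every Srrm2-KD library lay below every Gl2-KD library, with means of 62.1 ± 14.3 and 88.4 ± 5.70 CPM (SD, n = 3). The log2 fold change was -0.53 (standard error 0.12, 95% interval -0.79 to -0.28, edgeR adjusted p = 0.140). Within the experiments, Gl2-KD was 1.33, 1.85 and 1.24 times Srrm2-KD. The gene lies on chromosome 2 from 172549593 to 172558622 (GRCm38, forward strand). Without experiment 2, its log2 fold change was -0.37.

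*Elf3* (chromosome 1, 135253575 to 135258568, reverse strand) had 16.3, 27.1 and 33.7 CPM in Gl2-KD and 10.6, 20.6 and 26.8 CPM in Srrm2-KD at 72 h. The groups overlapped, because experiment 1 lay low in both, while all 3 experiments had less of it in Srrm2-KD. Its log2 fold change was -0.45 (standard error 0.11, 95% interval -0.68 to -0.21, edgeR adjusted p = 0.153). *Tfap2a*, an AP-2 factor of surface ectoderm and trophoblast, had 1.38, 2.25 and 1.46 CPM in Gl2-KD and 1.015, 1.37 and 0.818 CPM in Srrm2-KD, without overlap between the groups. Its log2 fold change was -0.65 (standard error 0.23, edgeR adjusted p = 0.286). The other 6 trophoblast genes had unadjusted p-values above 0.05. *Krt7*, a keratin of simple epithelia, differed by -0.12 on the log2 scale with a 95% interval from -0.68 to 0.44. *Gata2*, a GATA factor of trophoblast giant cells and blood, had 8.54 CPM in the Gl2-KD library of experiment 3 at 72 h and 0.286 to 1.39 CPM in the other 11 libraries, and that library also held the highest *Gata3* (0.662 CPM) and *Krt7* (18.6 CPM).

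Among the ectoderm genes, *Sox11* had 22.6, 22.02 and 22.3 CPM in Gl2-KD and 26.5, 32.8 and 27.4 CPM in Srrm2-KD at 72 h. The Srrm2-KD libraries all lay above the Gl2-KD libraries, which had an SD of 0.304 CPM (n = 3), and the log2 fold change was 0.37 (standard error 0.14, edgeR adjusted p = 0.322). *Zic2* had 58.5, 30.0 and 17.1 CPM in Gl2-KD and 68.2, 37.5 and 32.1 CPM in Srrm2-KD. It was higher in 3 of 3 experiments, 1.16, 1.25 and 1.88 times, with overlapping groups and a log2 fold change of 0.46 (standard error 0.19, edgeR adjusted p = 0.347). Without the Gl2-KD 72 h library of experiment 3 this value was 0.21.

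*Sox1*, an early neural plate factor, pointed the other way. At 24 h it had 1.47, 0.677 and 0.283 CPM in Gl2-KD and 1.56, 0.612 and 0.254 CPM in Srrm2-KD. At 72 h it had 1.62, 0.912 and 0.898 CPM in Gl2-KD and 1.11, 0.211 and 0.464 CPM in Srrm2-KD, again with overlap. The log2 fold change of *Sox1* was -1.12 (standard error 0.43, edgeR adjusted p = 0.319), and it was -0.74 without the Srrm2-KD library of experiment 2 at 72 h. *Nes* was lower in 3 of 3 experiments with a log2 fold change of -0.27 (95% interval -0.67 to 0.12). *Pax6* differed by 0.12 (95% interval -0.27 to 0.51) and *Zic5* by 0.27 (95% interval -0.19 to 0.74). Beside these genes, the levels of 6 markers of postimplantation epiblast were summed. At 72 h the sum was 400 to 546 CPM in Gl2-KD and 591 to 751 CPM in Srrm2-KD, and at 24 h it overlapped, at 510 to 665 and 551 to 935 CPM. At 72 h the log2 fold change was above 0 for 6 of 6, as for 9292 of the 19410 genes tested. Of the 6, 3 were higher in 3 of 3 experiments, as were 18.8% of all genes. *Dnmt3b* made 71.7% of this sum and, with *Otx2*, 89.0%, and its part in the ectoderm values was not tested.

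Among the primitive endoderm genes, *Hnf4a*, a nuclear receptor of visceral endoderm and liver, had 0.359, 0.352 and 0.624 CPM in Gl2-KD and 0.884, 1.03 and 1.35 CPM in Srrm2-KD at 72 h. The gene lies on chromosome 2 from 163506808 to 163572910 (GRCm38, forward strand). The Srrm2-KD libraries lay above all Gl2-KD libraries, 2.47, 2.92 and 2.16 times within the experiments. The log2 fold change was 1.32 (standard error 0.47, 95% interval 0.29 to 2.35, edgeR adjusted p = 0.289). *Gata4*, which with *Gata6* specifies primitive endoderm, had 1.10, 0.904 and 1.64 CPM in Gl2-KD and 1.09, 0.765 and 0.314 CPM in Srrm2-KD, a log2 fold change of -0.84 (95% interval -1.70 to 0.02). *Sox17*, a factor of primitive and definitive endoderm, was lower in 3 of 3 experiments at 0 to 0.0996 CPM and at most 13 counts in all the 72 h libraries. *Pdgfra*, a receptor on primitive endoderm cells, was higher in 3 of 3 experiments at each time point (log2 fold changes 0.87 at 24 h and 0.75 at 72 h, edgeR adjusted p = 1 and 0.515). The members of this lineage therefore did not share a direction: 5 of the 7 tested lay above 0 and 2 below.

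None of the 9 mesendoderm genes reached an unadjusted p below 0.05. *T*, the primitive streak factor brachyury, had 1.63, 1.85 and 1.32 CPM in Gl2-KD and 0.916, 1.31 and 1.19 CPM in Srrm2-KD at 72 h. These groups did not overlap, but the log2 fold change of -0.55 had a standard error of 0.36 and an edgeR adjusted p of 0.559. Without the Gl2-KD library of experiment 1 at 72 h it was -0.15, and without that of experiment 3 it was -0.87. *Wnt3*, the ligand that starts the primitive streak, was likewise lower in 3 of 3 experiments without overlap (log2 fold change -0.74, 95% interval -1.83 to 0.35). *Eomes* differed by 0.03 (95% interval -0.78 to 0.83) and *Hhex* by -0.17 (95% interval -0.55 to 0.20).

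Over all 35 members at 72 h, 17 log2 fold changes lay above 0 and 18 below, and the median was -0.12 against -0.02 over all genes tested. In 3 of 3 experiments 6 members were higher and 9 lower in Srrm2-KD, as were 18.8% and 23.1% of all genes. The groups did not overlap for 2 members higher in Srrm2-KD, *Sox11* and *Hnf4a*, and for 5 lower, *T*, *Wnt3*, *Sox17*, *Tfap2c* and *Tfap2a*. Of all genes, 2.99% and 3.67% lay fully above and below. *Sox17* had 5, 13 and 13 counts in experiments 1, 2 and 3 of Gl2-KD and 6, 2 and 0 in Srrm2-KD. Its nearest libraries, both of experiment 1, lay at 0.0408 and 0.0374 CPM, so this separation is near the floor. By lineage the median was -0.17 for mesendoderm, 0.15 for ectoderm, 0.31 for primitive endoderm and -0.45 for trophoblast. The fit that gave every pairing of experiment and time point its own block called 3 members at 72 h, *Tfap2c*, *Elf3* and *Hnf4a*, and 3.73% of all genes. The difference between the siRNA effects at 72 h and 24 h was called for 0 of the 35 members and 0% of all genes (edgeR). At an unadjusted p below 0.05 there was 1 member, *Tfap2c* with -0.40 (standard error 0.16, adjusted p = 1, and -0.22 without experiment 2), against 1.64% of genes, and DESeq2 and limma-voom called 0 members (0.0103% and 0% of genes).

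**Figure D2:**
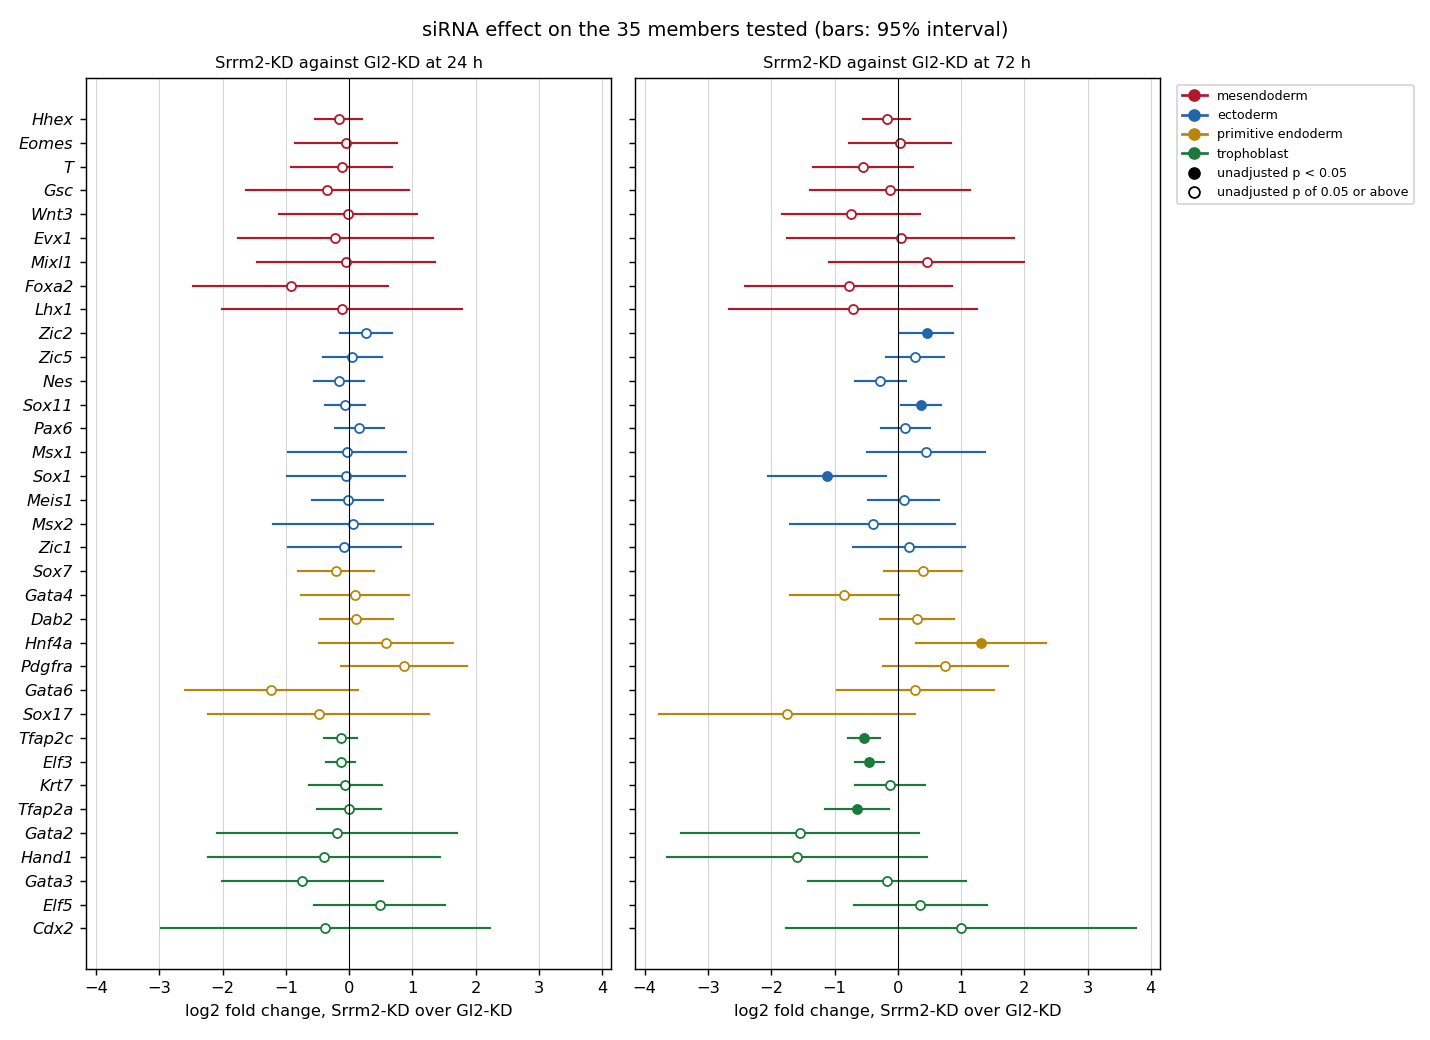
Log2 fold change of Srrm2-KD over Gl2-KD for the 35 members tested, at 24 h and 72 h, with 95% intervals; colour gives the lineage and filled points have an unadjusted p below 0.05. There are 0 filled points at 24 h and 7 at 72 h, 3 to the right of 0 and 4 to the left.

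Genes of the same lineages outside the 40 were read from a list of 71, of which 55 passed the filter. For the siRNA comparisons 0 of these 55 were called at either time point by edgeR, while 2 passed an unadjusted 0.05 at 24 h and 11 did at 72 h. Of the 11, 2 were higher and 9 lower in Srrm2-KD, where 5.01% of all genes tested were higher and 7.86% lower at that threshold. Among 15 further primitive endoderm genes, 6 were at an unadjusted p below 0.05 and all 6 lower, with a median of -0.46 over the 15. These 6 comprised *Col4a1*, *Col4a2*, *Lama1* and *Nid2*, components of basement membrane, besides *Sparc* and *Apoe*, named here after their values were seen. Most of the 6 were abundant: in experiment 1 and in the others, *Apoe* averaged 637 and 1015 CPM and *Nid2* 469 and 136 CPM. *Sparc* averaged 76.5 and 125 CPM and *Lama1* 50.8 and 34.7 CPM. By contrast, 7 of 9 primitive endoderm members averaged at or under 1 CPM, so these values do not speak for the lineage as such. *Col4a2* had 3.06, 3.35 and 5.76 CPM in Gl2-KD and 1.70, 1.47 and 2.11 CPM in Srrm2-KD at 72 h (log2 fold change -1.20, edgeR adjusted p = 0.159).

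The time comparison asks how the markers differed between the cultures of 24 h and 72 h, in each siRNA. Only the 72 h cultures had the further transfection, so time in culture and that transfection cannot be told apart here. *Krt7* rose in both and was the only member called in either. In Gl2-KD it had 1.14, 1.23 and 5.64 CPM in experiments 1, 2 and 3 at 24 h and 2.84, 6.996 and 18.6 CPM at 72 h. In Srrm2-KD it had 1.06, 1.41 and 4.83 CPM at 24 h and 2.32, 7.07 and 16.9 CPM at 72 h. The time points overlapped because experiment 3 at 24 h lay above experiment 1 at 72 h, but within each experiment the level rose 2.48, 5.71 and 3.29 times in Gl2-KD and 2.19, 5.02 and 3.49 times in Srrm2-KD.

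The log2 fold change of *Krt7* was 1.83 in Gl2-KD (standard error 0.26, 3.56-fold, adjusted p = 0.0144) and 1.77 in Srrm2-KD (standard error 0.26, 3.42-fold, adjusted p = 0.0333) by edgeR's quasi-likelihood test. So 1 of 35 members was called in each, where 1.45% and 0.551% of all genes were. The difference between these changes was -0.06 (95% interval -0.86 to 0.74). The call rests on the block for the experiment: without it the log2 fold changes were 1.83 and 1.85 and the adjusted p-values 1.00 and 1.00. In Gl2-KD the call was also lost without the 24 h library of experiment 1 or 2 or the 72 h library of experiment 2 of Gl2-KD (adjusted p = 0.0597, 0.116 and 0.105), and without experiment 2 or 3 (0.501 and 0.0921), at log2 fold changes of 1.504 to 2.08 over all settings. In Srrm2-KD the call was lost without any of the 3 Srrm2-KD libraries of 24 h, without experiment 2 or 3 of Srrm2-KD at 72 h, without the Gl2-KD 24 h library of experiment 1 or 3 or the Gl2-KD 72 h library of experiment 2, and without experiment 2 or 3 (adjusted p from 0.0505 to 0.653), and with Srrm2-KD fitted alone (0.221). The summed fibroblast markers, 10.2 to 19.7 CPM at 24 h and 7.55 to 28.7 CPM at 72 h in Gl2-KD, were in the same order of experiments as *Krt7*. In experiment 1 of Gl2-KD this sum was lower at 72 h, 7.55 against 10.2 CPM, where *Krt7* was higher. The part of the fibroblast markers in *Krt7* was not tested. *Krt7* lies on chromosome 15 from 101411043 to 101430313 (GRCm38, forward strand), and its upstream window is the first printed above. A gene annotated on the other strand, *Gm671*, overlaps its exons.

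No other trophoblast member was called with time. *Tfap2c* was higher at 72 h in 3 of 3 experiments of Gl2-KD, with 71.4, 58.9 and 73.7 CPM at 24 h and no overlap with the 72 h values given above (log2 fold change 0.39, edgeR adjusted p = 0.125). In Srrm2-KD it had 72.4, 54.8 and 58.9 CPM at 24 h, and the log2 fold change with time was -0.01 (95% interval -0.27 to 0.24). The siRNA comparison at 72 h and the time comparison in Gl2-KD share the Gl2-KD libraries of 72 h. *Elf3* had 14.3, 30.5 and 34.5 CPM at 24 h in Gl2-KD and 14.9, 26.0 and 29.6 CPM in Srrm2-KD, and its log2 fold change with time was -0.01 in Gl2-KD and -0.32 in Srrm2-KD (adjusted p = 0.984 and 0.180).

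*Evx1*, a homeobox factor of the posterior primitive streak, was lower at 72 h in both siRNAs. In Gl2-KD it had 0.377, 2.77 and 0.411 CPM at 24 h and 0.351, 0.161 and 0.0381 CPM at 72 h. In Srrm2-KD it had 0.561, 2.06 and 0.360 CPM at 24 h and 0.343, 0.0792 and 0.0682 CPM at 72 h. The time points did not overlap in either siRNA, and the level at 24 h was 17.2 and 26.0 times that at 72 h in experiment 2 of Gl2-KD and Srrm2-KD but 1.08 and 1.64 times in experiment 1. The log2 fold changes were -2.59 (standard error 0.75, adjusted p = 0.138) and -2.32 (standard error 0.77, adjusted p = 0.199) by edgeR. Without experiment 2 they were -1.58 and -1.42. *Evx1* (chromosome 6, 52313498 to 52318378, forward strand) is overlapped by the antisense gene *Evx1os*, at a mean of 0.199 CPM.

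*T* went the other way in Gl2-KD, from 0.400, 1.14 and 1.52 CPM at 24 h to 1.63, 1.85 and 1.32 CPM at 72 h. The time points overlapped, experiment 3 was lower at 72 h, and the log2 fold change was 0.82 (edgeR adjusted p = 0.293). Without experiment 1 it was 0.27. In Srrm2-KD, with 0.536, 0.870 and 1.34 CPM at 24 h, it was 0.39 (95% interval -0.41 to 1.18). *Eomes* had log2 fold changes with time of 0.41 and 0.48 and *Hhex* of 0.13 and 0.12, in Gl2-KD and Srrm2-KD, with all 4 of the 95% intervals spanning 0.

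Of the 10 ectoderm genes tested, 7 had a log2 fold change with time below 0 in Gl2-KD, as had 9252 of the 19410 genes tested, and 3 of them an unadjusted p below 0.05. *Sox1* was not among the 7. It had the highest value of the lineage, 0.72, and was higher at 72 h in 3 of 3 experiments, 1.10, 1.35 and 3.17 times. *Nes* was not among them either, at 0.38 (95% interval -0.01 to 0.78), nor *Zic1*, whose 0.02 turned below 0 under both other scalings. *Sox11* had 26.4, 33.5 and 34.7 CPM at 24 h in Gl2-KD, all above the 22.02 to 22.6 CPM at 72 h (log2 fold change -0.48, standard error 0.14, edgeR adjusted p = 0.121). In Srrm2-KD, with 23.4, 29.3 and 38.4 CPM at 24 h, the *Sox11* value was -0.05 (95% interval -0.37 to 0.26). *Pax6* had 34.6, 19.9 and 12.7 CPM at 24 h and 31.1, 13.2 and 6.89 CPM at 72 h in Gl2-KD, and 34.4, 24.2 and 14.3 CPM at 24 h and 32.8, 12.1 and 9.17 CPM at 72 h in Srrm2-KD. It was lower at 72 h in 3 of 3 experiments of each siRNA (log2 fold changes -0.53 and -0.57, edgeR adjusted p = 0.160 and 0.157), while the experiments differed more than the time points. *Zic2* had a log2 fold change of -0.44 in Gl2-KD (adjusted p = 0.264), which was -0.21 without the Gl2-KD 72 h library of experiment 3, and -0.25 in Srrm2-KD (adjusted p = 0.549).

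In the primitive endoderm group, *Sox7*, an endoderm and endothelial factor, had 1.94, 1.47 and 0.475 CPM at 24 h and 1.199, 0.751 and 0.289 CPM at 72 h in Gl2-KD. It was lower at 72 h in 3 of 3 experiments with overlapping time points, at a log2 fold change of -0.80 (standard error 0.28, edgeR adjusted p = 0.173). In Srrm2-KD the value was -0.20 (95% interval -0.81 to 0.42), from 1.77, 1.22 and 0.413 CPM to 1.23, 0.818 and 0.587 CPM. *Gata6* in Srrm2-KD had 0.193, 0.356 and 0.150 CPM at 72 h, all above the 24 h values given above (log2 fold change 2.02, standard error 0.61, edgeR adjusted p = 0.147). Its counts were under 10 in 3 of the 12 libraries. In Gl2-KD the *Gata6* value was 0.51 (95% interval -0.75 to 1.77). *Hnf4a* was higher at 72 h than at 24 h in 3 of 3 experiments of Srrm2-KD, where it had 0.678, 0.225 and 0.550 CPM at 24 h (log2 fold change 1.31, edgeR adjusted p = 0.212), and its value in Gl2-KD was 0.57 (95% interval -0.49 to 1.64).

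With time, 8 of the 35 members had an unadjusted p below 0.05 in Gl2-KD, 3 higher and 5 lower, and 6 in Srrm2-KD, 3 higher and 3 lower, where 16.8% and 16.3% of all genes did. In Gl2-KD, 9.59% of all genes were higher and 7.21% lower at that threshold. For Srrm2-KD these shares were 7.72% and 8.54%. In 3 of 3 experiments 4 members were higher and 9 lower at 72 h in Gl2-KD (20.2% and 16.2% of genes), and 5 and 9 in Srrm2-KD (16.2% and 16.6%). The time points did not overlap for *Gata6* and *Tfap2c*, higher, and *Evx1*, *Sox11* and *Dab2*, lower, in Gl2-KD (3.91% and 3.36% of genes), and for *Gata6* and *Hnf4a*, higher, and *Evx1* and *Hand1*, lower, in Srrm2-KD (3.58% and 3.9%). The median log2 fold change of the members was 0.02 in Gl2-KD and -0.15 in Srrm2-KD, against 0.02 and 0.00 over all genes tested. DESeq2 called 3 members in each, *Krt7*, *Evx1* and *Sox11* in Gl2-KD (8.16% of genes) and *Krt7*, *Evx1* and *Pax6* in Srrm2-KD (6.62%), and limma-voom called *Krt7* alone in each (2.48% and 1.33%). Of the 55 further lineage genes, edgeR called 2 in Gl2-KD and 1 in Srrm2-KD, all lower at 72 h, where 1.45% and 0.551% of all genes were called. *Bmp4*, a ligand that acts on trophoblast and mesoderm fates, fell from 78.3, 64.4 and 42.3 CPM to 41.2, 25.4 and 20.7 CPM in Gl2-KD and from 74.4, 53.3 and 36.9 CPM to 33.8, 19.5 and 24.9 CPM in Srrm2-KD. All libraries of 72 h lay below all of 24 h in each siRNA, by log2 fold changes of -1.10 and -1.04 (edgeR adjusted p = 0.0144 and 0.0375). *Sp5*, a direct target of Wnt signalling, fell in Gl2-KD by 0.97 on the log2 scale (adjusted p = 0.0485), from 4.08, 6.53 and 2.52 CPM to 2.67, 2.86 and 1.17 CPM with overlapping time points. The *Bmp4* calls were lost in 6 of 24 alternatives in Gl2-KD and in 12 of 24 in Srrm2-KD, and the *Sp5* call in 15 of 24, each among them without the block (adjusted p = 1.00), while their directions held in all of these.

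**Figure D3:**
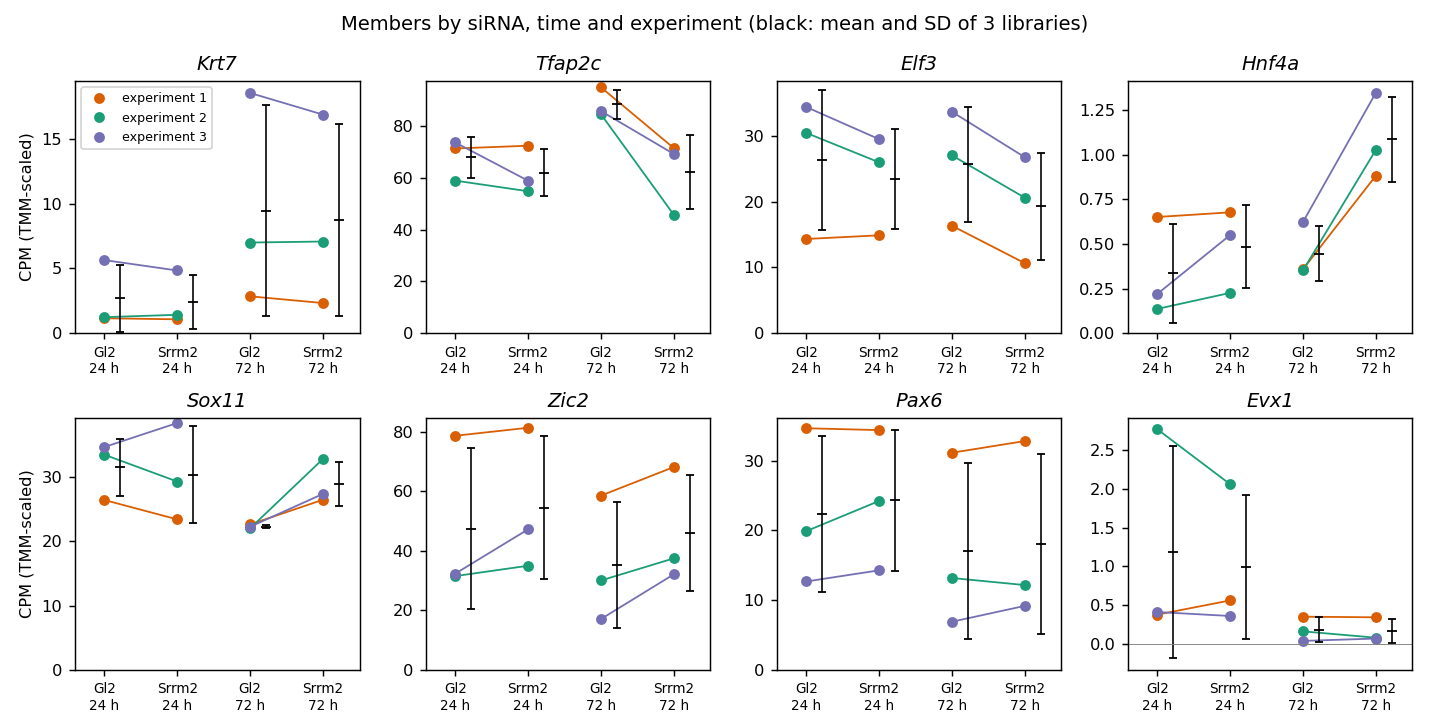
Levels of 8 members in CPM by siRNA, time point and experiment; lines join the libraries of an experiment within a time point, and black bars give the mean and SD of 3 libraries. *Krt7* stands higher at 72 h in each experiment, *Hnf4a* and *Sox11* in Srrm2-KD lie above Gl2-KD at 72 h, and the experiments stand apart for *Elf3*, *Zic2* and *Pax6*.

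Several members differed in level between the experiments, as did many of the genes tested. An experiment has no replicate of its own, so these values are a description without a test. In experiment 1, all 4 libraries lay above the other 8 for 5 of the 35 members and below them for 2. The same held for 16.7% and 13.7% of all genes, so the members did not exceed the genes at large by these counts. The 5 were all ectoderm genes. *Pax6* averaged 33.2 CPM in experiment 1 and 14.0 CPM in the others, *Zic2* 71.7 and 32.8 CPM, *Zic5* 76.2 and 39.9 CPM, *Sox1* 1.44 and 0.539 CPM, and *Zic1*, another Zic factor of neural ectoderm, 0.318 and 0.167 CPM. *Zic2* and *Zic5* are neighbours on chromosome 14 whose starts lie 9758 nt apart, so they are not independent observations. Another ectoderm gene, *Nes*, lay the other way, with 16.5 CPM in experiment 1 and 35.8 CPM in the others, so the lineage did not move as 1 block.

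Trophoblast genes stood mostly lower in experiment 1, with 7 of 9 means below and a median log2 ratio of -1.37. That median is the value of *Hand1*, which had 0 to 42 counts a library. *Cdx2* had 0 to 28 counts, and the *Gata2* mean of the other experiments includes the library of 8.54 CPM. *Tfap2c*, the most abundant of the 9, averaged higher in experiment 1, 77.6 against 66.4 CPM. Only 1 of the 9 had libraries without overlap. *Elf3* averaged 14.1 CPM in experiment 1 and 28.6 CPM in the others without overlap. *Krt7* averaged 1.84 and 7.83 CPM, with overlapping libraries, and its highest value of 18.6 CPM was 17.5 times its lowest. Of the further trophoblast genes, *Krt8*, *Krt18*, *Krt19*, *Ascl2* and *Esx1* lay lower in experiment 1 without overlap, and the others overlapped. The keratins averaged 5.50 and 27.8 CPM for *Krt8*, 4.54 and 35.5 CPM for *Krt18*, and 1.43 and 7.12 CPM for *Krt19*. Of the mesendoderm genes, 7 of 9 were lower in experiment 1 at a median log2 ratio of -0.45, and of the primitive endoderm genes 5 of 7 were higher at 0.20, all with overlapping libraries. The median over all genes tested was -0.03.

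**Figure D4:**
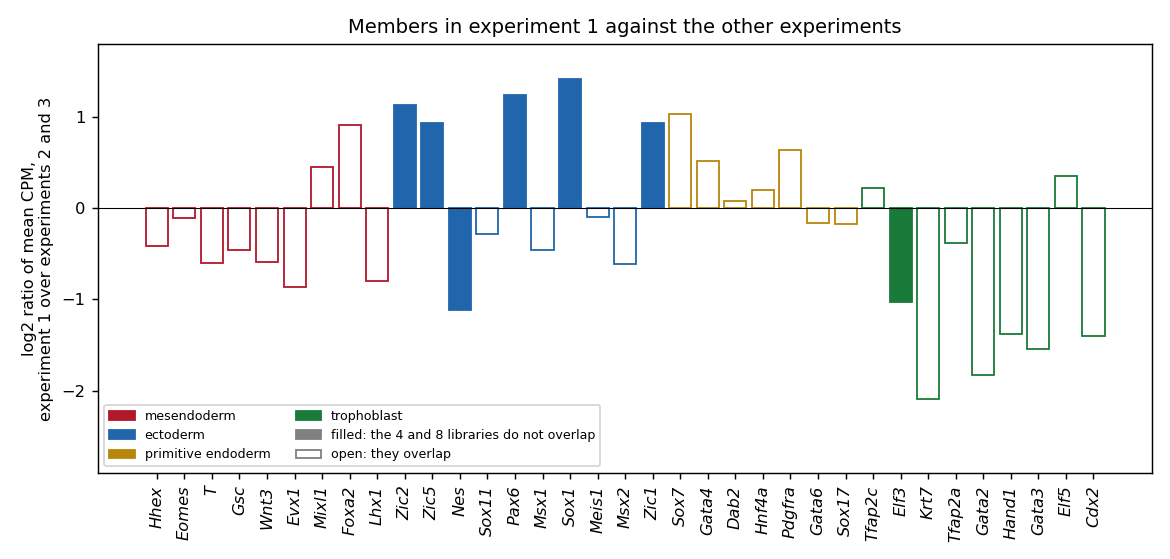
Log2 ratio of the mean CPM in the 4 libraries of experiment 1 over the mean in the 8 libraries of experiments 2 and 3, for the 35 members tested; bar colour gives the lineage, and filled bars mark members whose 4 and 8 libraries do not overlap. Filled bars above 0 belong to 5 ectoderm genes, and those below 0 to *Nes* and *Elf3*.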

How the data were processed

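PolyA+ RNA-seq of 12 libraries was used. Kallisto 0.46.1 (build mm10 in the submitters' processing notes) was run by the authors, who deposited estimated counts per gene, not normalised for library size. How transcripts were summed per gene, and the strand setting, are not given in the sources used here; the library kit was stranded. Short or overlapping genes may therefore share counts. Of the 42450 identifiers, 42156 were matched to symbols in GENCODE M21 (GRCm38), and exon lengths for levels per kb came from there.

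Counts were rounded to whole numbers. edgeR 4.0.16 (R 4.3.3) was used. filterByExpr, with at least 10 counts and a total of at least 15 given the 4 groups, left 19410 genes. After TMM scaling, 1 fit of 12 libraries had a term per group and the experiment number as block (glmQLFit, legacy=TRUE). The study used the RNA processing day, which is not given per library in the sources used here. A call was a p below 0.05 after Benjamini-Hochberg adjustment across the whole table of tested genes. CPM are counts scaled to TMM-adjusted library sizes, and a sign within an experiment was read after adding 0.1 CPM. The common biological coefficient of variation was 0.220. Libraries of the same number deviated together from their group means: across genes, the 18 same-number pairs had correlations of 0.392 to 0.838 and the 36 others -0.707 to 0.307. The labels name 3 independent experiments of 1 line, which are the replicates. With the experiment as block, p-values measure the spread that remains after the level of each experiment is taken out, pooled over the 4 groups.

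Alternatives were DESeq2 1.42.0, limma-voom (limma 3.58.1), scaling by RLE or by totals, other filters, legacy=FALSE, no block, a block for experiment and time point together, separate fits, and leaving out each library or experiment. The tests were also run on simulated counts, which held no differences between experiments, so that run could not check the block. Every-library values are given for members called, for the 3 highest per kb of each lineage and for the smallest p of each lineage and comparison, and others by range and counts, apart from a few named for lying next to them. Members and lists were chosen with earlier results of these data known. Promoter sequences are RefSeq's.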

Additional observations from a re-analysis of the deposited data

Results flagged for a closer look

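*Sox7* was singled out because its siRNA effect pointed opposite ways at the time points: all 3 experiments gave less of it in Srrm2-KD at 24 h, and all 3 gave more at 72 h. The log2 fold changes were -0.20 and 0.40, and their difference of 0.60 had a standard error of 0.39 (interaction contrast, edgeR adjusted p = 1). In experiments 1 and 2 the level at 72 h in Srrm2-KD was 1.03 and 1.09 times that in Gl2-KD, and in experiment 3 it was 2.03 times. The difference was 0.26 when experiment 3 of Srrm2-KD at 72 h was left out. Groups of 3 libraries are too small for the check on single outlying samples, so none was made.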

How the results depend on the processing

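Of the 175 log2 fold changes of the 35 members in the 5 comparisons, 84 kept their direction under every alternative that gave a value and 91 turned under at least 1. All 22 of those with an unadjusted p below 0.05 kept it. At 72 h, the number of members called between the siRNAs was 0, and it was 2 with DESeq2 and 3 with a separate replicate block for every pairing of experiment and time point. With time in Gl2-KD it was 1, and it was 3 with DESeq2, 2 with legacy=FALSE (*Krt7* and *Evx1*), 0 with no replicate block, and 0 to 2 with a library or an experiment left out. With time in Srrm2-KD it was 1, and it was 3 with DESeq2, 0 with no replicate block, 0 with each siRNA fitted alone, and 0 to 1 with a library or an experiment left out. At 24 h and for the difference between time points it was 0 under each alternative that gave a value. The number of all genes called ranged over the alternatives from 0 to 724 at 72 h between the siRNAs (0 by edgeR as described), from 0 to 1338 with time in Gl2-KD (282) and from 0 to 1061 with time in Srrm2-KD (107). *Krt7* was called in 18 of 24 alternatives in Gl2-KD and in 12 of 24 in Srrm2-KD, *Bmp4* likewise in 18 and 12, and *Sp5* in 9 of 24. The separate fits give no difference between time points, and the block for experiment and time point together gives no time comparison, so neither was run there. The cause of these changes was not tested. The members are mostly low: 25 of 40 averaged at or under 1 CPM, and intervals of several log2 units, as for *Cdx2* at 72 h (-1.76 to 3.76), leave differences not detectable at this depth and number of experiments.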
